A study of Mus musculus with 3 samples.

Results

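The genes described here encode the proteins of the mitochondrial ribosome that carry the symbols Mrpl or Mrps followed by a number. The members were taken by that symbol in the deposited tables, and every such probe was kept, while the family itself was picked with earlier results of these data known. The rule gave 105 of the 25697 probes on each array, and these probes belong to 72 of 17849 genes. The RNA came from dorsal dermal fibroblast progenitors, the mesenchymal cells that form the connective tissue of back skin, of mouse embryos at embryonic day 12.5. The embryos carried 1 Engrailed1Cre allele, in which Cre recombinase is expressed from the Engrailed1 locus, and 1 R26R allele, a Cre reporter at the Rosa26 locus. Laser-captured cells of 5 embryos gave 1 RNA pool, which was amplified, labelled and read on 3 Illumina MouseRef-8 bead arrays, called arrays 1, 2 and 3. The series thus held 1 group and no control, so each SD below is the spread between technical replicates, and no test between groups was possible.

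The mitochondrial ribosome, or mitoribosome, makes the few respiratory chain and ATP synthase subunits that mitochondrial DNA encodes. Its RNAs come from mitochondrial DNA, whereas all of its proteins are encoded in the nucleus, made in the cytosol and imported. The large subunit joins amino acids and the small subunit reads the messenger RNA. Many of its proteins have homologues in the bacterial ribosome, and others were gained in the mitochondrial lineage. Nearly every nucleated cell makes them, so they mark no cell type.

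Signal is given as normalized bead intensity in arbitrary units on a linear scale, where values near or below 0 lie at background. Detection here means a detection p below 0.01 on each of the 3 arrays for a probe, and 1 or more such probes for a gene. Arrays 1, 2 and 3 detected between 39.0% and 44.9% of all probes. All 7 measured markers of dermal mesenchyme were detected, among them Twist2, a transcription factor of early dermis, at 2859, 2990 and 2632 on arrays 1, 2 and 3. Markers of epidermis, muscle, endothelium, immune cells, erythroid cells, neural crest and neurons were detected at 15 of 19 as well. The 3 epidermal markers were all detected, with the keratin gene Krt14 at 1246, 1339 and 1354, and so were the 3 erythroid ones, with the globin gene Hba-a1 at 39600, 66847 and 39956. Of the immune markers Csf1r (159, 175 and 159) and Aif1 (93.0, 133 and 83.7) were detected, and Ptprc (3.29, 9.11 and -2.03) was not. Muscle, endothelium and neurons each had 2 of 3 markers detected, and neural crest and Schwann cells 1 of 1. How much of each mitoribosomal signal came from cells other than fibroblast progenitors was not tested, and in a bulk pool fewer cells of a type cannot be told apart from less RNA per cell.

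Transcripts of the mitoribosomal proteins were read nearly throughout. Of the 72 genes 66 were detected (91.7%), against 43.6% of all genes on the array. Of the 105 probes 86 were detected (81.9%), against 37.7% of all probes. A detection p of 0 on all 3 arrays was found for 84 of the 86 detected probes, and 13 probes were detected on no array. A p of 0 is the lowest value possible, so it does not measure how far a signal lay from the threshold. The calls of 6 probes differed between arrays. These counts of p-values and calls were not set beside all probes. The share among cytosolic ribosomal protein genes, which serve the main ribosome of the cell, was 92.1% (58 of 63). The bar plot of detection by gene list sets these shares side by side.

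**Figure D1:**
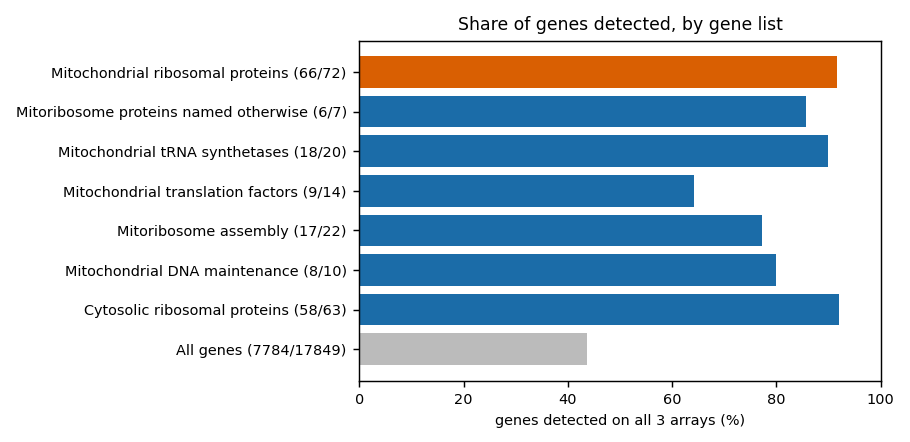
Share of genes detected on all 3 arrays, in percent, for the mitochondrial ribosomal proteins (orange), related gene lists (blue) and all genes (grey), with detected and measured gene numbers in brackets. The mitochondrial ribosomal proteins stand at 91.7%, the cytosolic ribosomal proteins at 92.1% and all genes at 43.6%.

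By subunit, 41 of 45 large subunit genes and 25 of 26 small subunit genes were detected. The gene left over, Mrps36, is named as a small subunit protein but belongs to the 2-oxoglutarate dehydrogenase complex of the citric acid cycle. Mrps30 and Mrps18a, whose names point to the small subunit, are counted with the large one, where structures place them. By origin, 41 of 45 genes with a bacterial homologue and 25 of 26 mitochondria-specific genes were detected. The S18 paralogues Mrps18a and Mrps18b are counted as mitochondria-specific and Mrps18c as the bacterial type, after the unified ribosomal protein naming. The levels of different probes are not ranked, because probes differ in how well they bind their target.

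**Figure D2:**
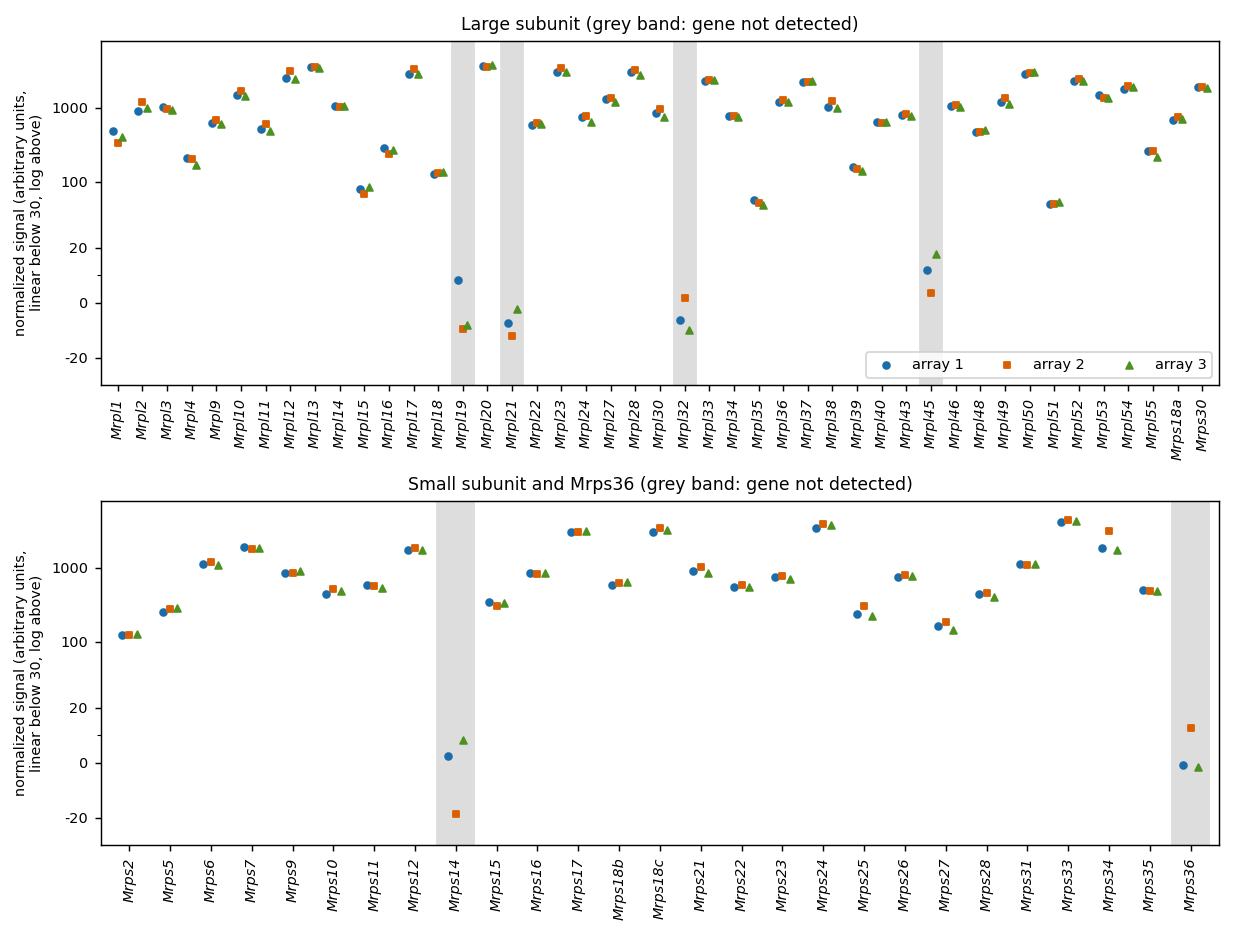
Normalized signal (arbitrary units, linear below 30 and logarithmic above) on arrays 1, 2 and 3 for each mitochondrial ribosomal protein gene, by its detected probe with the highest mean signal or, for undetected genes, the probe with the highest mean. The 6 genes on grey bands were not detected and have values between -18.8 and 17.9, and heights of different genes are not comparable.

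At the stalk of the large subunit, which recruits the GTPases that drive translation, all 4 genes examined were detected. Mrpl12, the homologue of the flexible bacterial stalk protein, lay at 2491, 3108 and 2456 on arrays 1, 2 and 3. Mrpl10, which anchors the stalk, was read by both of its probes, at 1502, 1675 and 1451 by one and at 916, 945 and 964 by the other. Mrpl11, of the GTPase-associated centre, lay at 513, 606 and 481. The mitochondria-specific Mrpl53 lay at 1495, 1367 and 1357. For Mrpl12 and Mrpl11 array 2 gave the highest value, and for Mrpl53 array 1 did, so the arrays took no single order across the stalk.

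The proteins around the peptidyl transferase centre, where the peptide bond forms, were detected likewise. Mrpl2, a core protein of this region, lay at 913, 1200 and 990, with array 2 highest. Mrpl3 was read by 2 probes, one at 1009, 954 and 922 and the other nearer to background at 54.0, 74.7 and 55.6. Mrpl27 averaged 1286 ± 79.5 (SD, n = 3 arrays), while Mrpl16, which lies near the aminoacyl-tRNA, read 286, 239 and 270. Mrpl4, another large subunit protein with a bacterial homologue, averaged 192 ± 22.2 (SD, n = 3 arrays) and was detected. The central protuberance, which contacts the small subunit and the tRNAs, was represented by 5 genes, all detected. Mrpl18 averaged 131 ± 3.67 and 118 ± 11.9 by its 2 probes, Mrpl38 1075 ± 134, Mrpl40 635 ± 8.07 and Mrpl46 1052 ± 27.5 (SD, n = 3 arrays). Mrpl48, the fifth, had detected and undetected probes and is taken up with the genes of several probes.

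At the tunnel through which the nascent chain leaves, 3 of the 4 genes assigned to it here were detected. Mrpl22 lay at 590, 622 and 599, Mrpl23 at 3023, 3412 and 3018, and Mrpl24 at 746, 769 and 633 on arrays 1, 2 and 3. These are homologues of bacterial tunnel proteins. The exception was Mrpl45, a mitochondria-specific protein at the tunnel exit that holds the ribosome to the inner membrane. Its 2 probes read 11.8, 3.36 and 17.9, and -0.00887, 2.33 and -13.1, and neither passed on any array. Whether both probes missed the transcript was not tested. Mrps18a averaged 705 ± 30.3 and Mrps30 1884 ± 31.0 (SD, n = 3 arrays), and both were detected.

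In the small subunit, Mrps12, the decoding centre protein, lay at 1752, 1832 and 1742 on arrays 1, 2 and 3. Mrps7, which organises the head of the subunit, was read by 2 probes, averaging 1848 ± 44.4 and 242 ± 7.05. Mrps2 averaged 125 ± 1.28 and Mrps16, a protein of the body, 836 ± 12.6, and both had some of the smallest spreads between arrays. Mrps5, near the entry of the messenger RNA, was read by 2 probes at 268 ± 34.1 and 272 ± 17.8. Mrps6 of the platform averaged 1123 ± 51.9 (SD, n = 3 arrays in each case). The S18 paralogues of this subunit were both detected, Mrps18c at 3005, 3482 and 3206 and Mrps18b at 587, 618 and 634 by 1 of its 2 probes. Among the mitochondria-specific proteins Mrps22 averaged 560 ± 20.1 and Mrps27, which carries pentatricopeptide repeats, 164 ± 21.2 (SD, n = 3 arrays). Mrps34 lay at 1826, 3101 and 1717, the widest spread of any detected member probe.

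Besides Mrpl45, 5 genes were not detected, each with a single probe. Mrpl19 lay at 8.40, -9.64 and -8.27, and Mrpl21 at -7.24, -12.3 and -2.13 on arrays 1, 2 and 3. Mrpl32, a protein that matures by cleavage through the mitochondrial m-AAA protease, lay at -6.37, 1.70 and -9.82. Mrps14, the single undetected small subunit gene, lay at 2.49, -18.8 and 8.26, and Mrps36 at -0.799, 12.7 and -1.57. None of these probes had a detection p under 0.01 on any array. All lay within the range of background, with at least 1 value below 0 in each. Such a value does not show that the transcript was absent, since 5 of 63 cytosolic ribosomal protein genes, which dividing cells need, were not detected either. A locus called MGC117608, defined in the file as similar to the L32 protein and looked up after the Mrpl32 values were seen, read 12.5, 35.0 and 21.8 and was not detected.

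Genes with several probes gave a measure of how far the call depends on the probe. Of the 21 such genes, 12 had every probe detected, 8 had detected and undetected probes, and 1, Mrpl45, had none detected. With detection on at least 1 array taken as enough, the mixed genes were 5. Over all genes with several probes the mixed share was 8 of 21 (38.1%) for members, against 2066 of 5036 (41.0%) for the whole array. Among those with at least 1 detected probe it was 8 of 20 (40.0%), against 2066 of 2976 (69.4%). Detection itself differed, at 81.9% of member probes and 37.7% of all probes, and its effect on these shares was not tested. Genes with 1 probe were detected at 46 of 51 (90.2%), and genes with several at 20 of 21. Counted by probe, 40 of the 54 probes of genes with several were detected (74.1%). These shares were not set beside those of all genes split in the same way. The plot of genes with several probes shows the 3 array values for each.

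**Figure D3:**
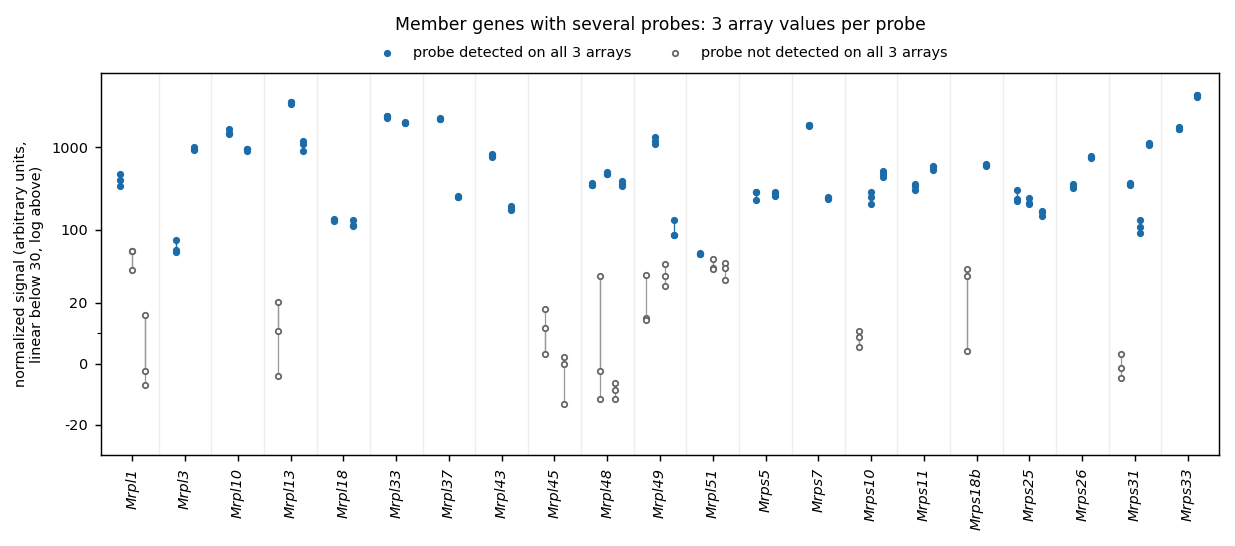
Normalized signal (arbitrary units, linear below 30 and logarithmic above) of each probe of the 21 mitochondrial ribosomal protein genes with several probes. Each vertical trio joins the values of 1 probe on the 3 arrays, filled where the probe was detected on all 3 arrays and open where it was not, and 8 genes hold filled and open trios.

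In Mrpl48 the split between probes followed the transcript that the file assigns to them. The 3 probes for transcript variant 1 read 369, 347 and 352, then 474, 475 and 495, then 361, 340 and 394 on arrays 1, 2 and 3, and all were detected. The 2 probes for transcript variant 2 read -2.26, 28.9 and -11.5, and -8.78, -6.39 and -11.6, and neither was detected on any array. Mrpl1 had 1 probe for its transcript variant 2, averaging 2.16 ± 12.2 (SD, n = 3 arrays), which was not detected. Its other probes, with no variant given, read 479, 335 and 405 (detected) and 55.2, 32.2 and 55.2 (detected on arrays 1 and 3). Mrps33 also had a probe for its transcript variant 2, which was detected at 4104, 4391 and 4308. Whether the undetected probes for variant 2 bind their target as well as the others was not tested.

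The other mixed genes had no variant given for their probes. Mrpl49 was read clearly by 1 of 4 probes, at 1183, 1337 and 1103, and more weakly by another at 132, 85.5 and 86.0. Its remaining probes read 29.1, 15.1 and 14.3, and 37.7, 28.9 and 25.6, and passed on array 1 alone. Mrps31 was detected by 3 of 4 probes, averaging 1101 ± 23.9, 358 ± 9.42 and 109 ± 20.2, while the fourth lay at -1.02 ± 3.94 (SD, n = 3 arrays). Mrpl13 was detected by 2 of 3 probes, at 3500 ± 88.2 and 1063 ± 143, with the other at 8.99 ± 12.3. Mrps10 was likewise detected by 2 of 3, at 476 ± 38.8 and 245 ± 40.0, with the other at 8.38 ± 2.72 (SD, n = 3 arrays). Mrps18b had its second probe at 33.4, 4.14 and 28.7, which passed on array 1 alone.

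Mrpl51 and Mrpl35 were the genes closest to the threshold. Mrpl51, a mitochondria-specific large subunit protein, was detected by 1 of 3 probes, averaging 50.9 ± 1.28 (SD, n = 3 arrays), with a detection p of 0.00501 on array 2. Its other probes read 34.0, 44.1 and 33.2, which missed on array 2, and 38.9, 34.1 and 27.4, which passed on array 1 alone. Mrpl35 lay at 55.8, 51.1 and 48.6, with the same p of 0.00501 on array 2. Both calls were lost at a detection p under 0.001.

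Genes with every probe detected included Mrps25, read by 3 probes at 252 ± 43.8, 220 ± 21.6 and 158 ± 12.2. Mrpl33 was read by 2 at 2350 ± 59.7 and 1998 ± 31.6, Mrps33 by 2 at 4268 ± 148 and 1701 ± 64.1, and Mrps26 by 2 at 769 ± 25.6 and 342 ± 20.9. Mrpl37, Mrpl43 and Mrps11 had both probes detected as well, Mrpl37 at 2233 ± 46.7 and 251 ± 4.59, Mrpl43 at 793 ± 31.3 and 183 ± 9.69, and Mrps11 at 563 ± 29.8 and 335 ± 29.3 (SD, n = 3 arrays for each probe).

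The median SD of log2 signal between arrays over the 86 detected member probes was 0.0777, and over all 9693 detected probes 0.1090. Without array 1, 2 or 3 in turn the median over the member probes was 0.0592, 0.0489 and 0.0608. These medians come from SDs over fewer arrays, so none compares directly with 0.0777. The member probes also had more signal, with a median on array 1 of 745 against 294 for all detected probes. Over all detected probes the median SD was 0.2184 at 30 to 100 units on array 1 and 0.0653 at 1000 to 3000. At like signal the median SD was lower for members than for all probes in each range that held members but 100 to 300. At 30 to 100 on array 1 it was 0.1328 for 4 member probes and 0.2184 for all 1947 probes. At 3000 to 10000 it was 0.0655 for 8 member probes and 0.0961 for all 509. At 100 to 300 on array 1 the median SD was 0.1386 for 19 member probes and 0.1319 for all 2912 probes. At 300 to 1000 it was 0.0642 for 30 member probes and 0.0797 for all 2776, and at 1000 to 3000 it was 0.0538 for 25 member probes and 0.0653 for all 1399. The 5 detected probes with the smallest SD of log2 signal belonged to Mrpl34 (769, 766 and 754), Mrps2 (124, 125 and 126), Mrps17 (3069, 3031 and 3098), Mrpl40 (636, 626 and 642) and Mrps16 (839, 823 and 848). Next to Mrps34, the largest SDs belonged to the weaker probes of Mrpl49, Mrps31 and Mrpl3 and to the detected probe of Mrpl1.

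Array 2 was the only one scaled up by the authors, with a slope from non-normalized to normalized signal of 2.07. Arrays 1 and 3 were scaled down, with slopes of 0.672 and 0.699. Over the detected member probes the log2 signal of array 2 minus the mean of arrays 1 and 3 had a median of 0.043, and over all detected probes 0.018. By more than 0.32 on the log2 scale, 5 of 86 member probes were higher on array 2 (5.81%), against 11.0% of all detected probes, and 5 were lower (5.81%), against 7.59%. These shares move with signal. Higher or lower together were 21.1% of member probes and 20.6% of all probes at 100 to 300 on array 1, and 6.67% and 5.73% at 300 to 1000. At 1000 to 3000, 2 of 25 member probes were higher, against 41 of all 1399 probes (2.93%), and 1 of 25 was lower, against 4 of 1399 (0.286%). The 5 higher probes belonged to Mrps34, Mrpl3, Mrps25, Mrpl12 and Mrpl2, and the 5 lower ones to Mrpl1, Mrps31, Mrps10, Mrpl13 and Mrps5. Of the cytosolic ribosomal protein probes 28 of 69 were higher on array 2 by this measure (40.6%). These probes had a median signal of 8619 on array 1. Of all detected probes 10.0% were higher on array 2 by the same measure at 3000 to 10000 on array 1, and 72.5% above 10000.

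Mrps34 stood apart from the rest of the members. Its signal on array 2 was 1.75-fold the geometric mean of arrays 1 and 3, a log2 difference of 0.81. The next highest detected member probe, of Mrpl3, differed by 0.45. Of the 1399 detected probes with 1000 to 3000 units on array 1, 7 (0.500%), Mrps34 among them, were at least as much higher on array 2. Before normalization its intensities were 2803, 1575 and 2548. Mrps34, which stabilises the small ribosomal RNA in mouse, has 1 probe here, and its detection p was 0 on every array, so its call did not rest on array 2. The 3 arrays share 1 RNA pool, so this is a difference between readings of the same RNA.

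**Figure D4:**
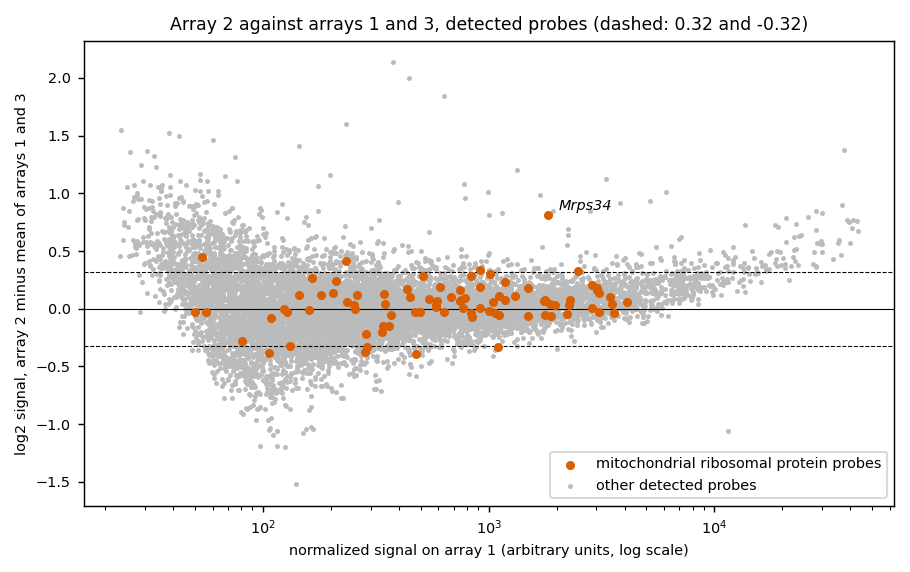
Log2 signal on array 2 minus the mean of arrays 1 and 3 (vertical) against normalized signal on array 1 (arbitrary units, log scale) for the 86 detected mitochondrial ribosomal protein probes (orange) and the other detected probes (grey). The dashed lines mark 0.32 and -0.32, and Mrps34 lies at 0.81, above all other orange points.

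Proteins of the mitoribosome with other names were detected at 6 of 7. Dap3, a GTP-binding protein of the small subunit, lay at 3356, 3835 and 3164, Chchd1 at 8450, 9722 and 8254, Aurkaip1 at 2112, 2463 and 2097, and Ptcd3, a pentatricopeptide repeat protein, at 143, 128 and 126 on arrays 1, 2 and 3. Gadd45gip1, of the large subunit, was not detected at -5.43, 1.16 and -2.23. The list also holds Mrpl57, which averaged 48.0 ± 9.12, and Mrpl58, a codon-independent peptide release factor, at 232 ± 17.4, both under older names in the table. Outside that list and the symbol rule, again under older names, stood Mrpl42 at 1161 ± 12.9 and Mrpl47 at 555 ± 31.1 (SD, n = 3 arrays). With these 4 Mrpl genes, and under current names, 70 of 76 Mrpl and Mrps genes were detected (92.1%).

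Genes of other parts of mitochondrial gene expression were measured as well. Those for charging mitochondrial tRNAs were detected at 18 of 20, among them Aars2 (55.0 ± 19.4), Ears2 (259 ± 28.7), Fars2 (1001 ± 37.8) and Hars2 (140 ± 16.8). The list also holds genes that are not mitochondria-only synthetases, namely Gars, Kars, Qrsl1, Gatb and Gatc, all detected. Yars2 (-4.68 ± 3.36) was among those not detected. Translation factors, in a list that also counts Lrpprc and Slirp, were detected at 9 of 14. Mtif3, an initiation factor, averaged 157 ± 9.64, the elongation factor genes Tufm and Tsfm 2179 ± 142 and 340 ± 6.43, and Gfm2, of ribosome recycling, 223 ± 15.0 (SD, n = 3 arrays). The initiation factor gene Mtif2 (19.4 ± 3.49), the elongation factor gene Gfm1 (41.1 ± 13.6), Guf1 (4.06 ± 18.9), Mtfmt (6.42 ± 15.6), which formylates the initiator tRNA, and Taco1 (7.50 ± 1.83) were not detected. Gfm1 passed on 2 arrays, at 51.1 and 46.5 on arrays 1 and 3, and read 25.6 on array 2.

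Factors of mitoribosome assembly and ribosomal RNA modification were detected at 17 of 22. Noa1 averaged 566 ± 15.5, Eral1, an RNA chaperone of the small subunit, 284 ± 16.6, Mtg1 56.6 ± 9.97 and the helicase gene Ddx28 91.2 ± 19.4. The undetected ones were Mtg2 (27.3 ± 8.46), the rRNA methyltransferase gene Mrm2 (14.1 ± 7.23), Fastkd2 (11.2 ± 10.8), Ngrn (6.22 ± 11.8) and Mettl15 (6.27, 18.2 and 11.6). Genes that transcribe and maintain mitochondrial DNA were detected at 8 of 10, with Polrmt, the RNA polymerase, at 888 ± 33.6, Tfam at 341 ± 20.3, Tfb2m at 152 ± 9.04 and Tefm at 297 ± 18.8. The helicase gene Twnk (16.3 ± 18.5) and the nuclease gene Mgme1 (3.11 ± 7.27) were not (SD, n = 3 arrays in each case). Each of these shares lies above the 43.6% of all genes.

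The members lie on 17 chromosomes. Chromosomes 11 (10 genes, 9 detected) and 17 (8 genes, all detected) each hold more members than any of the others. These counts were not set beside all genes of each chromosome. RefSeq promoter sequences of the mouse build GRCm38.p6, 250 bases before to 50 bases after the start, were at hand for 63 of the 72 genes. The start of 19 of these (30.2%) lay within 500 bases of the start of a gene running the opposite way. The share was 12.5% of 6093 detected genes and 7.53% of 17492 protein-coding genes. Of the 16 member genes whose neighbour had a probe, the neighbour was detected for 11 (68.8%), against 68.2% of all genes in such pairs that had a probe.

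The stretches between the starts of 4 such pairs are printed to show pairs with different outcomes on the arrays, chosen after the values were seen. Each is written on the strand of the first gene named, 5′ to 3′, and capitals mark the motifs searched.
Mrps11 and Mrpl46, chr7:78783090-78783130, plus strand: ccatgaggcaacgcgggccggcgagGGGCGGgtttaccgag
Mrps12 and Sars2, chr7:28741822-28741967, minus strand: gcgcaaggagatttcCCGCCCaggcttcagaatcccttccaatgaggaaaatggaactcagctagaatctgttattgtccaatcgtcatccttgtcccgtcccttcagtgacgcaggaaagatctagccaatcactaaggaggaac
Mrpl43 and Twnk, chr19:45006443-45006557, minus strand: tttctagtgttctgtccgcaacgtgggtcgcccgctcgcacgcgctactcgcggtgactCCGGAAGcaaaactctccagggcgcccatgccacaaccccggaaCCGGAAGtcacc
Mrpl21 and Ighmbp2, chr19:3283011-3283041, plus strand: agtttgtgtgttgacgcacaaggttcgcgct

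Mrps11 and Mrpl46, of the small and the large subunit, start 42 bases apart and were both detected, Mrps11 at 587, 571 and 529 by its probe with the highest mean and Mrpl46 at 1049, 1081 and 1026. Mrps12 starts 147 bases from Sars2, the mitochondrial seryl-tRNA synthetase gene, and Sars2 was detected at 32.7, 46.4 and 36.1. Mrpl43 starts 116 bases from Twnk, and here Mrpl43 was detected at 786, 827 and 765 while Twnk was not, at 3.02, 37.4 and 8.42. Mrpl21 starts 32 bases from Ighmbp2, and neither was detected, Ighmbp2 lying at -5.56, 2.09 and 3.79. Mrpl32, undetected, starts 205 bases from the proteasome gene Psma2, which was detected at 11427, 12851 and 10485. Neighbours were thus both detected, both undetected or split.

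Short motifs of known factors were searched on both strands of the 300-base promoters, and none of them contains another. The ETS motif CCGGAAG stood in 23 of 63 member promoters (36.5%), in 19.5% of those of detected genes and in 11.9% of all. The NRF1 motif, named for nuclear respiratory factor 1 and searched with 1 free base, stood in 11 (17.5%), against 11.3% of detected genes and 6.60% of all. With the shorter motif GCGCATGCG, tried after the first values were seen, it was 7 (11.1%), against 3.99% and 2.41%. The YY1 motif AAGATGGC stood in 11 (17.5%), against 5.10% and 3.22%. The SP1 motif GGGCGG stood in 32 (50.8%), against 67.0% and 46.3%, and the TATA box TATAAA in 4 (6.35%), against 7.29% and 13.3%. The stretch between Mrpl43 and Twnk holds the ETS motif at 2 places, and those beside Mrps11 and Mrps12 hold the SP1 motif once each. The median GC content was 58.3% in member promoters, 61.3% in those of detected genes and 56.3% in all. A match is a run of letters and does not show that a factor binds there.

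**Figure D5:**
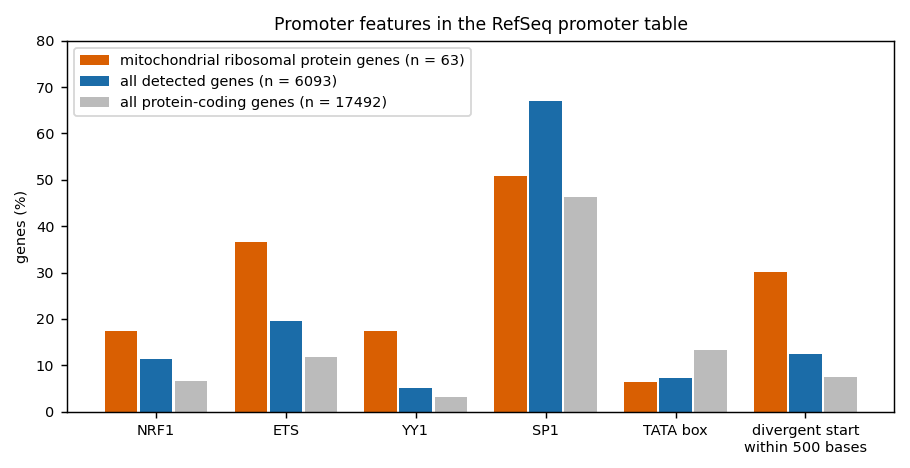
Share of genes, in percent, whose 300-base RefSeq promoter holds each motif, and share with a start of an opposite gene within 500 bases, for the mitochondrial ribosomal protein genes (orange), all detected genes (blue) and all protein-coding genes (grey). The ETS motif stands at 36.5%, 19.5% and 11.9%, and the divergent start at 30.2%, 12.5% and 7.53%.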

How the data were processed

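Non-normalized and normalized bead intensity, with a detection p-value per probe and array, were deposited by the authors, per the file headers. The deposited normalized intensity was a straight line of the non-normalized one on each array, with a slope and an offset of its own. No header or label names the method. The detection p-values were the same in both files. Gene names were matched to RefSeq (GRCm38.p6) for all but 974 probes. A gene was valued by its detected probe with the highest mean signal, and log2 spreads used detected probes. With 1 group all values are descriptions, and the number of arrays limits the precision. The statistics were tested on simulated data. Python 3.11.15, numpy 2.4.6 and pandas 2.3.3 were used.

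The members and lists were chosen with earlier results of these data known. Values are given for undetected genes, probes with calls differing between arrays, genes with several probes, members with a listed role and the 5 largest and 5 smallest SDs, and from other lists for the first 4 detected and the undetected genes, of which 1 is not reported here. List members with no probe were not analysed here. RefSeq names pseudogene copies of Mrpl23, Mrpl27, Mrpl48 and Mrps36, and whether a probe also binds a copy was not tested. Alternatives covered detection p thresholds of 0.05 and 0.001, the arrays and probes required, the normalization, leaving out each array, and a shorter NRF1 motif chosen after seeing the data.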

Additional observations from a re-analysis of the deposited data

How the results depend on the processing

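The counts of detected member probes and of detected genes in the members, their subunits and origins and the other ribosomal and mitochondrial lists stayed within 1.5 times the reported value under every alternative run. Markers and divergent neighbours were not recounted. The 8 genes with mixed probes were 5 with at least 1 array, and 7 or 8 otherwise. The 66 detected member genes were 66 at a detection p under 0.05, with at least 2 arrays, with at least 1 array and without any single array, 64 at a detection p under 0.001, 58 with detection asked of all probes a gene has (32.0% of all genes passed that rule), and 49 when probes without a definition in the file were left out, an alternative chosen after seeing the data, which left 53 member genes (92.5% detected, against 43.1% of all genes so kept). With non-normalized intensity, where array 2 had not been scaled up, the median SD of log2 signal over member probes was 0.7951, the median log2 difference of array 2 from the others was -1.374, and all 86 member probes differed by over 0.32 on the log2 scale. With quantile normalization these were 0.0735, 0.016 and 7 probes. Under these 2 settings the counts were not set beside all detected probes. Leaving out 1 array gave median SDs of 0.0489 (without array 2) to 0.0608, and the cause was not tested. The NRF1 motif stood in 11 member promoters, and in 7 with the shorter motif chosen after seeing the data. No paired analysis was possible because the series has 1 group. Detection on background-level probes is limited by the arrays, and all spreads cover technical error of 1 RNA pool only.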
